A study of Mus musculus with 12 samples.

Results

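The myeloid C-type lectin receptors are a group of 10 genes here: Clec7a, Clec12a, Clec4a1, Clec4a2, Clec4a3, Clec4d, Clec4e, Clec4n, Clec5a and Clec10a. They were taken by symbol from the 48526 genes counted in the series. RNA was sequenced from microglia, the resident macrophages of the central nervous system, sorted from spinal cord of mice of the Biozzi ABH strain. Cells that were CD11b positive, CD45 intermediate and Ly-6C negative were collected. The 4 groups of 3 mice were controls with no disease phase and mice with chronic-relapsing experimental autoimmune encephalomyelitis (crEAE) in its acute, remission or chronic phase. This disease is an induced autoimmune attack on the central nervous system and a model of multiple sclerosis. The mice differed by no other genotype or agent in the labels. Age, sex, the days of each phase and what the controls received were not given in the sources used here.

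C-type lectin receptors bind sugars, lipids or proteins through a shared fold and let myeloid cells sense microbes and dying cells. Activating receptors start a cascade through the kinase Syk, either with a signalling motif in their own tail (Clec7a, known as Dectin-1) or through an adaptor. Clec4e (Mincle), Clec4d (MCL) and Clec4n (Dectin-2) use the adaptor Fcer1g, and Clec5a (MDL-1) uses Tyrobp. Syk then signals through Card9, Bcl10 and Malt1 to cytokine genes. Clec12a (MICL) and Clec4a2 (DCIR) carry inhibitory motifs in their tails that recruit phosphatases. Clec4a1 and Clec4a3 are relatives of Clec4a2, and Clec10a (MGL1) binds galactose-type sugars on macrophages and dendritic cells.

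Total counts ranged from 3992885 to 5712376 per library. Of these, 1266782 to 2496096 lay outside the 6 most counted features and the mitochondrially encoded genes. Levels are CPM, counts scaled to the size of the library, after scaling by trimmed mean of M values (TMM). Where a group held no count of a gene, folds were taken against a floor of 3 counts over the group, which is 0.172 CPM for control, 0.27 for acute, 0.209 for remission and 0.215 for chronic libraries. The microglial genes P2ry12 and Tmem119 were high in controls, at 677 ± 93.9 and 969 ± 69.4 CPM, and low in the acute group, at 65.7 ± 18.7 and 185 ± 47.7 CPM (SD, n = 3). Ly6c2, which encodes an antigen of the gate, was at 0 in control and at 63.7 ± 18.5 CPM in acute libraries, against the negative gate in the labels. A list of 16 genes of monocytes and recruited macrophages summed to 31.7 to 77.7 CPM in control and to 1810 to 2700 CPM in acute libraries. The same sum was 43.7 to 51.3 CPM in remission and 57.3 to 108 CPM in the chronic phase. Of that list, Ly6c2, Chil3, F10 and S100a4 were at 0 in control, F10 in remission, and F10 and S100a4 in chronic libraries. Lists of 12 neutrophil genes and 10 T and NK cell genes reached 109 to 375 and 53.9 to 75.7 CPM in acute libraries. In controls they reached at most 0.645 and 0.175 CPM, with 9 and 8 genes at 0. In remission the neutrophil genes summed to 43.7 CPM in replicate 1 and to 2.12 and 1.06 CPM in the others. In chronic libraries they summed to 0.18 to 9.79 CPM. T and NK cell genes reached at most 3.33 CPM in remission and 0.72 CPM in the chronic phase. A list of 8 border macrophage genes lay at 69.4 to 114 CPM in acute libraries and at most 3.26 CPM elsewhere. F13a1, which monocytes also express, supplied 81.2 ± 21.9 CPM of the acute sum, while Lyve1 and Folr2 were at 0 there and Pf4, Cbr2 and Cd163 at most at 0.644 ± 0.563 CPM. The untested Mrc1 and Ms4a7 were at 3.74 ± 2.69 and 3.01 ± 1.28 CPM there, against 0.285 ± 0.247 and 0 CPM in control. For both, every acute library lay above every control library. All 12 homeostatic microglia genes fell in the acute phase, where 20.4% of all genes tested were lower than in control and 23.3% higher. The sum of 9 dendritic cell genes was 122 to 137 CPM there and 328 to 391 CPM in control, mostly through Siglech, also a microglial gene, at 53.3 ± 10.5 and 343 ± 32.1 CPM. Of the 4 dendritic cell genes tested, Siglech and Zbtb46 fell, whereas Flt3 rose from 0.59 ± 0.349 to 5.69 ± 2.04 CPM and Itgax from 8.17 ± 1.8 to 50.7 ± 6.84 CPM. The untested Ccr7 and Dpp4 were at 5.86 ± 3.36 and 4.55 ± 2.86 CPM in acute libraries and at 0.0472 ± 0.0817 and 0 CPM in control. The part of all these lists in the results below was not tested. In these bulk samples, fewer cells of a type and less RNA per cell cannot be told apart.

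All members but Clec10a, on chromosome 11, lie on chromosome 6 of the mouse genome GRCm38. Short promoter sequences show the start regions of 4 members that were much higher in the acute phase than in the other groups. They come from RefSeq on GRCm38.p6 and run from 250 bases before to 50 bases after an annotated start, 5′ to 3′ on the gene's strand. Capitals mark every match to a motif searched on both strands.
Clec7a, chr6:129472730-129473029, minus strand: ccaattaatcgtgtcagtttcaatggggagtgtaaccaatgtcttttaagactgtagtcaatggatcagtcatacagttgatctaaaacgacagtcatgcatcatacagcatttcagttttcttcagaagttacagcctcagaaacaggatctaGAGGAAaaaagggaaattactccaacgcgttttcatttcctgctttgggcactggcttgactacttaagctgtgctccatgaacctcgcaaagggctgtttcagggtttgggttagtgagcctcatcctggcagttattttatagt
Clec4e, chr6:123289822-123290121, minus strand: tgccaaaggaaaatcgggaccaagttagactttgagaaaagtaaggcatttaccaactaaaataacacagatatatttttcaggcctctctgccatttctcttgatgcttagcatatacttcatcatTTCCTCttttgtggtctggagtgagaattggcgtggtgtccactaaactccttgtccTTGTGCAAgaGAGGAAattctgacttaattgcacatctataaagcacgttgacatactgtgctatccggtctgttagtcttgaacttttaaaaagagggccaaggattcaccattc
Clec4d, chr6:123261857-123262156, plus strand: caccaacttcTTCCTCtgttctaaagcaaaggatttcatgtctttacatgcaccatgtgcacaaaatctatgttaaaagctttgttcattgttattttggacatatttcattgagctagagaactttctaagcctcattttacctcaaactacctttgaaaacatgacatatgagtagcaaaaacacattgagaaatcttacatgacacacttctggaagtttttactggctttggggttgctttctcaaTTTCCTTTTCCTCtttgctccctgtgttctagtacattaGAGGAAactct
Clec12a, chr6:129349994-129350293, plus strand: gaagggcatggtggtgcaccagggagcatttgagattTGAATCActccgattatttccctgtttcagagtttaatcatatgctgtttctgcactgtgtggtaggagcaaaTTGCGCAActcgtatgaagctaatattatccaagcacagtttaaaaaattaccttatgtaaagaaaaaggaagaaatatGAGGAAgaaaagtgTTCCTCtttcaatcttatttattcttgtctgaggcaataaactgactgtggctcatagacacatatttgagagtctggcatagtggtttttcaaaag

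The motifs were the purine box GAGGAA, the AP-1 motif TGANTCA, the C/EBP motif TTGCNNAA, the interferon-stimulated response element (GAAA, any 2 bases, then GAAA again) and the NF-kB site. They were chosen after the expression values were known. An entry was found for 8 of the 10 genes. GAGGAA was present in 6 of these 8, namely in Clec5a, Clec4a1 and the 4 shown, and in 28.3% of all 27025 promoters of this length. Clec4a2 and Clec4a3 held no GAGGAA. TTGCNNAA was found in Clec4e and Clec12a, against 10.8% of all promoters. TGANTCA was found in Clec12a and Clec4a2, against 7.93% of all. The interferon-stimulated response element stood only in the Clec4d window of the 8, where it overlaps a GAGGAA on the same strand, against 3.49% of all. No NF-kB site was found in the 8 windows, and 4.35% of all promoters had one. The Clec12a entry starts 7553 bases from the start of the gene in GENCODE M21. A match describes letters in a window and is not a measured binding site.

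In the acute phase 7 of the 9 members tested were higher than in controls, and none was lower. Among all 12545 genes tested, 23.3% were higher and 20.4% were lower in that comparison. The 7 were Clec7a, Clec12a, Clec4a1, Clec4d, Clec4e, Clec5a and Clec10a. The median log2 fold change of the tested members was 5.08, against 0.01 over all genes tested. Clec12a, Clec4d, Clec4e and Clec10a held at most 3 counts in each of the other groups, so they passed the filter on low counts through the acute libraries, where they are high. Clec4a1, with at most 13 counts in any library outside the acute group, also needed acute libraries to pass that filter. The count and the median therefore describe the tested members and support nothing beyond them. Clec4n did not pass the filter and was not tested with the others. A gene was called changed at an adjusted p under 0.05 in edgeR's quasi-likelihood test, with p adjusted by Benjamini-Hochberg over all genes tested. An adjusted p printed beside a pooled ratio or fold comes from that test, not from the pooled counts or their interval.

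**Figure D1:**
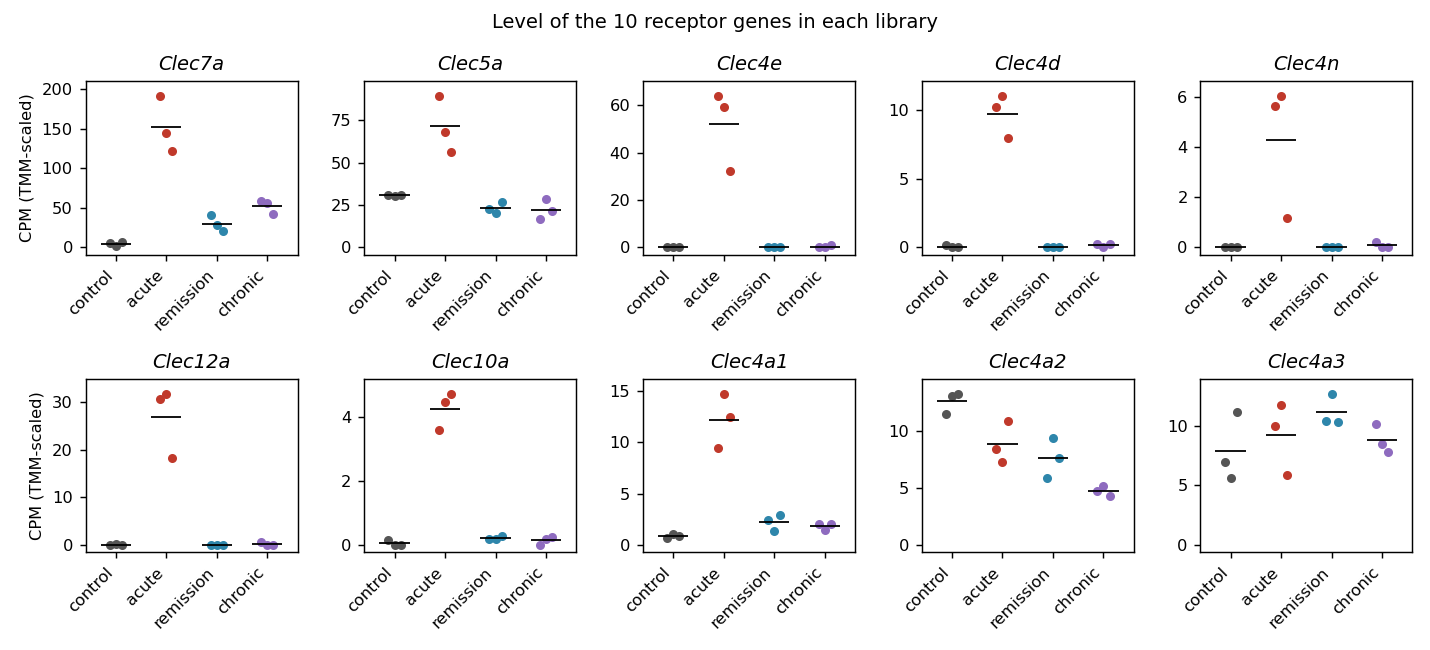
CPM after TMM scaling (vertical axis, linear, own scale per gene) of the 10 receptors in each of the 12 libraries, by group, with a bar at each group mean. Clec7a, Clec4e, Clec4d, Clec4n, Clec12a, Clec10a, Clec4a1 and Clec5a sit highest in the 3 acute libraries, whereas Clec4a2 sits highest in control and Clec4a3 overlaps among groups.

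Clec7a, the receptor for fungal beta-glucan and also a gene commonly counted among those of damage-associated microglia, was raised in all 3 disease phases. Control libraries held 5.24, 2.10 and 6.24 CPM, and acute libraries 191, 144 and 122 CPM. Remission libraries held 40.3, 27.7 and 19.9 CPM, and chronic libraries 58.0, 55.6 and 42.2 CPM. No library of any disease phase fell to the control range, and the acute libraries lay above all others. Clec7a rose by a log2 fold change of 5.08 ± 0.35 (SE) in the acute phase (adjusted p = 2.23e-07). It was also higher than control in remission, by 2.72 ± 0.36 (adjusted p = 0.000411), and in the chronic phase, by 3.53 ± 0.35 (adjusted p = 2.73e-05). From the acute level it was lower by a log2 fold change of -2.36 ± 0.29 in remission (adjusted p = 5.05e-05) and of -1.55 ± 0.28 in the chronic phase (adjusted p = 0.00125). The order of the group means was acute, chronic, remission and control. The 3 chronic libraries lay above the 3 remission libraries, but that difference, 0.81 ± 0.29, did not pass the test (adjusted p = 0.197). DESeq2 put it at 0.83 with an adjusted p of 0.0489.

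Clec7a was the member higher than control in remission, 1 of 9 tested with none lower, where 6.14% of all genes tested were higher and 3.16% lower. In the chronic phase it was again the 1 member higher than control, and Clec4a2 was the 1 member lower, against 9.51% and 5.22% of all genes tested. The annotation lists Clec7a on the minus strand of chromosome 6 from 129461591 to 129472779. GENCODE M21 gives it the type polymorphic pseudogene, a label for a gene that is coding in some strains or individuals.

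The receptors that work through Fcer1g were near 0 outside the acute phase. Clec4e, which senses a nuclear protein released by dying cells and a mycobacterial glycolipid, had 0 counts in all 3 control libraries and 63.9, 59.5 and 32.4 CPM in the acute libraries. It was at 0, 0 and 0.265 CPM in remission and at 0, 0 and 0.753 CPM in the chronic phase. Its acute level was thus at least 306-fold higher than in control, on counts pooled over each group's libraries (adjusted p = 4.18e-08). Against remission, where 1 count was found, the pooled ratio was 759 (exact 95% counting interval 136 to 30000), and against the chronic phase, with 3 counts, it was 245 (83.5 to 1190). These intervals cover counting error only.

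Clec4d, the partner with which Clec4e forms a complex, was likewise high in the acute phase and near 0 in the other groups. The control libraries held 0.142, 0 and 0 CPM and the acute libraries 10.2, 11 and 7.95 CPM. Remission libraries held none and chronic libraries 0.227, 0 and 0.251 CPM. The acute libraries stood clear of all others. The pooled acute to control ratio was 171 (95% counting interval 30 to 6800, adjusted p = 8.28e-07), and Clec4d was at least 47-fold lower in remission than in the acute phase (adjusted p = 1.54e-06). Over the 12 libraries, Pearson's r between log2 CPM of Clec4d and Clec4e was 0.99. This describes points that share 4 groups, of which 3 are near 0.

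Clec4n, a receptor for fungal mannan, had 5.63, 6.03 and 1.18 CPM in the acute libraries and 0 in control and remission. A single chronic library had 0.227 CPM. All acute libraries lay above the others, but the third was well below its group. Pooled counts were at least 25.6-fold higher in the acute phase than in control. With no filter on low counts, which takes in 28574 genes, edgeR gave Clec4n an adjusted p of 1.57e-07 in that comparison.

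Clec5a, the receptor that pairs with Tyrobp and is known for binding dengue virus, was present in every group and had the highest mean level per length of all members in controls. Control libraries held 30.9, 30.5 and 30.8 CPM, acute libraries 89.3, 68.4 and 56.5, remission libraries 22.6, 20.4 and 26.5, and chronic libraries 16.4, 28.4 and 21.6. It rose by a log2 fold change of 1.22 ± 0.18 in the acute phase (adjusted p = 1.85e-05). It was then lower than acute by -1.63 ± 0.19 in remission (adjusted p = 1.51e-06) and by -1.68 ± 0.19 in the chronic phase (adjusted p = 1.62e-06). Every remission and chronic library lay below every control library. Neither difference from control passed the test, at -0.41 ± 0.19 (adjusted p = 0.212) and -0.46 ± 0.19 (adjusted p = 0.123). Without chronic replicate 2, the highest of that group, the chronic difference became -0.69 (adjusted p = 0.0314).

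Clec12a, an inhibitory receptor that recognises uric acid crystals, had 30.7, 31.7 and 18.2 CPM in the acute libraries. In control it was at 0, 0.175 and 0 CPM, in remission at 0 throughout, and in the chronic phase at 0.682, 0 and 0 CPM. The groups other than acute were thus at or under the floor of 3 counts. Pooled counts gave an acute to control ratio of 475 (95% counting interval 84.5 to 18800, adjusted p = 2.06e-08). Clec12a was at least 131-fold lower in remission than in the acute phase (adjusted p = 6.47e-08).

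Clec4a2, the inhibitory receptor DCIR, went the other way. Its libraries held 11.5, 13.1 and 13.3 CPM in control and 8.44, 7.34 and 10.9 CPM in the acute phase. Remission libraries held 5.92, 9.42 and 7.69 CPM, and chronic libraries 4.78, 5.22 and 4.27 CPM. All disease libraries lay below all control libraries, with the chronic group lowest. The chronic phase was lower than control by a log2 fold change of -1.39 ± 0.26 (adjusted p = 0.000657). The acute and remission differences from control, -0.51 ± 0.25 and -0.72 ± 0.24, did not pass the test (adjusted p = 0.102 and 0.0737). With library totals alone as the scaling, both passed, at -1.05 and -0.96 (adjusted p = 0.00217 and 0.0199). Clec4a2 was lower in the chronic than in the acute phase by -0.89 ± 0.27 (adjusted p = 0.0192), a call lost without acute replicate 3 (adjusted p = 0.0781).

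Clec4a1 rose with the acute phase and Clec4a3 was not called in any comparison. Their genes are neighbours. Clec4a1 held 0.708, 1.05 and 0.86 CPM in control and 9.46, 14.7 and 12.4 CPM in the acute libraries, a log2 fold change of 3.77 ± 0.41 (adjusted p = 2.5e-07). Remission libraries held 2.40, 1.35 and 2.92 CPM and chronic libraries 2.05, 1.44 and 2.01 CPM. All of these lay above control, but the differences of 1.31 ± 0.46 and 1.04 ± 0.47 did not pass the test (adjusted p = 0.0824 and 0.158). Without remission replicate 2, the lowest of its group, the remission difference was 1.58 (adjusted p = 0.0437). Clec4a3 lay at 6.94, 5.60 and 11.2 CPM in control and at 9.97, 11.8 and 5.89 CPM in the acute phase. Its remission libraries held 10.4, 12.7 and 10.3 CPM and its chronic libraries 10.2, 8.46 and 7.78 CPM. The control and acute ranges overlap almost wholly. Its test of any difference among the 4 groups gave an adjusted p of 0.448, and it was the 1 of 9 tested members not called there, against 44.2% of all genes that were called.

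Clec10a, the galactose-binding receptor, was low but present in the acute phase. Acute libraries held 3.58, 4.45 and 4.71 CPM, control libraries 0.142, 0 and 0, remission libraries 0.185, 0.192 and 0.265, and chronic libraries 0, 0.18 and 0.251. The pooled acute to control ratio was 73.6 (95% counting interval 12.6 to 2970, adjusted p = 2.19e-05), and the acute to remission ratio was 20.2 (6.52 to 102, adjusted p = 0.000231). The acute libraries did not overlap the others. Of all 75-base stretches of its transcripts, 4.44% are shared with Mgl2, which itself reached at most 0.227 ± 0.254 CPM as a group mean (SD, n = 3). For Clec4a2 that share was 3.24%, with Clec4a4 and Clec4b1, and for the other 8 members it was 0.

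Compared with the acute phase, 7 of 9 tested members were lower in remission and none was higher, where 18.8% of all genes tested were lower and 18.3% higher. In the chronic phase 8 of 9 were lower than in the acute phase and none was higher, against 15.2% lower and 13.7% higher among all genes. The 8 were the 7 acute-high members and Clec4a2. Both counts include Clec12a, Clec4d, Clec4e, Clec10a and Clec4a1, which passed the filter through the acute libraries. These comparisons share the acute libraries with the comparison of acute with control. Between chronic and remission no member was called, where 0.917% of all genes tested were higher and 0.271% lower by edgeR. The members with the smallest p by edgeR were Clec7a, higher in the chronic phase (adjusted p = 0.197), and Clec4a2, lower there (adjusted p = 0.218). DESeq2 called 1, Clec7a.

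**Figure D2:**
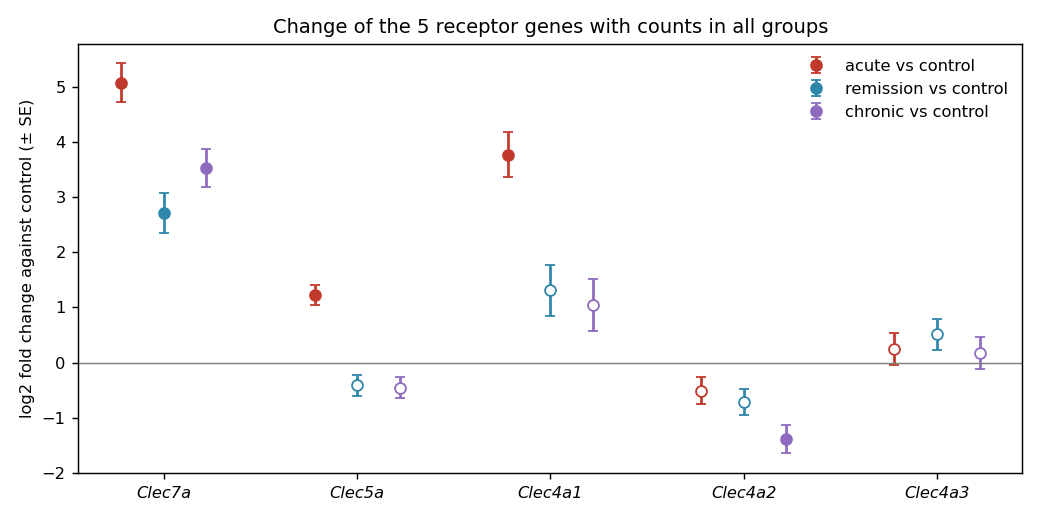
Log2 fold change against control, with bars of 1 SE, for the 5 members with more than 3 counts in every group, by phase; filled points passed the test and open points did not. Clec7a lies at 5.08, 2.72 and 3.53 in the acute, remission and chronic phases, while Clec4a2 lies at -0.51, -0.72 and -1.39.

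Within the acute group the libraries differed in level. Acute replicate 3 was the lowest of the group for Clec7a, Clec4e, Clec4d, Clec4n, Clec5a, Clec12a and Clec4a3, and the highest for Clec4a2 and Clec10a. The same library had the lowest sum of the monocyte and macrophage list, 1810 CPM against 2700 and 2230. It had the highest sum of the 12 homeostatic microglia genes, 3640 CPM against 2350 and 2720. Neutrophil genes were also lowest there, at 109 CPM against 188 and 375. The number in its sample title differed from that of the other acute libraries, and the labels do not explain that number. What goes with the number and what goes with these sums cannot be told apart here. Without acute replicate 3 all 7 acute-high members still rose.

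To compare levels between genes, CPM was divided by exon length (RPKM, the CPM per kilobase of exon). Summed over the 10 genes, RPKM was 20.6 ± 2.98 in control and 120 ± 24 in acute libraries (SD, n = 3). It was 29.7 ± 2.86 in remission and 35.2 ± 3.97 in the chronic phase. The makeup of that sum differed by phase. In control, Clec5a supplied 39.3 ± 5.25% of it, Clec4a3 28.3 ± 6.2%, Clec4a2 21.2 ± 3.08% and Clec7a 8.11 ± 3.22%. The control shares of Clec5a (33.5 to 43.7%) and Clec4a3 (23.3 to 35.2%) overlap. In the acute phase Clec7a led with 48.1 ± 3.51%, followed by Clec5a with 15.5 ± 0.978% and Clec4e with 8.56 ± 1.47%. Clec7a also led in remission, at 36.8 ± 9.49%, and in the chronic phase, at 55.7 ± 3.35%. Clec4a3 had the next mean share in both, at 28.4 ± 4.25% and 18.9 ± 1.87%, with group means of its own level between 5.96 and 8.39 RPKM. Remission shares of Clec7a (28 to 46.9%) and Clec4a3 (23.9 to 32.4%) overlap, so their order there is within the spread. Clec4a3 and Clec5a likewise overlap in remission (Clec5a 18 to 25.7%) and in the chronic phase (16.9 to 20.7% and 11.4 to 19.7%). Together these are shares of a sum, and a share falls when another member rises.

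**Figure D3:**
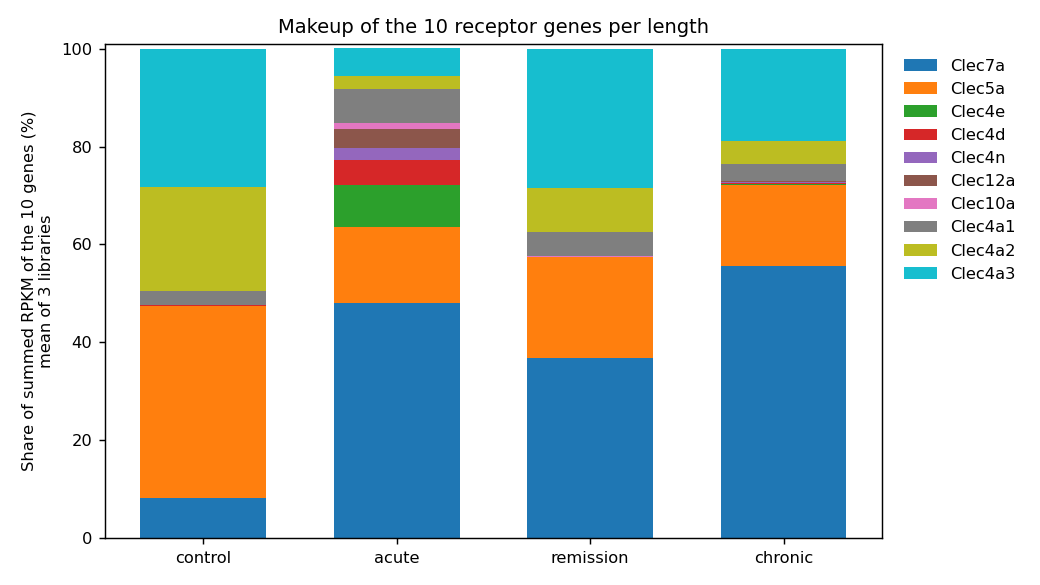
Mean share (percent) of each receptor in the summed RPKM of the 10 genes, stacked by group. In control the mean share is highest for Clec5a at 39.3%, whereas Clec7a holds 48.1% in the acute phase, 36.8% in remission and 55.7% in the chronic phase.

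The 6 Clec4 genes sit in a cluster on chromosome 6, between the start of Clec4a1 at 122921848 and the end of Clec4e at 123289870. Along it, Clec4a1 rose in the acute phase, its neighbour Clec4a3 was not called, Clec4a2 was called lower than control in the chronic phase, and Clec4d and Clec4e at the far end rose. Clec4n, next to them, was higher in every acute library. The related Clec4a4, Clec4b1 and Clec4b2, which lie between Clec4a3 and Clec4n, reached at most 0.43 ± 0.392 CPM in any group. Outside the cluster, C3ar1, the receptor for complement fragment C3a, rose in all 3 phases, from 56.6 ± 12.6 CPM in control to 90.5 ± 2.03, 122 ± 11.8 and 134 ± 4.83 CPM. Foxj2 and Necap1 on the same side were not called in any phase against control. The neighbours and the genes of the next region were described after their values were seen.

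Clec12a (129342691 to 129365303) and Clec7a form part of a second region of lectin genes on chromosome 6. Between them, Clec12b, Clec1b, Clec9a and Clec1a reached at most 0.515 ± 0.741 CPM in any group. Olr1, a receptor for oxidised lipoprotein next to Clec7a, rose from 0.39 ± 0.199 CPM in control to 10.9 ± 3.28 CPM in the acute phase (log2 fold change 4.69 ± 0.49, adjusted p = 1.71e-07). Its remission and chronic levels were 1.2 ± 0.114 and 1.63 ± 0.496 CPM, of which the chronic passed the test against control (adjusted p = 0.0253). Cd69 and Klrk1, genes of lymphocytes, had no counts in control and 6.34 ± 0.903 and 9.3 ± 4.83 CPM in the acute libraries. Clec5a stands apart at 40574894 to 40585821, among taste and olfactory receptor genes that reached at most 0.614 ± 0.384 CPM.

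**Figure D4:**
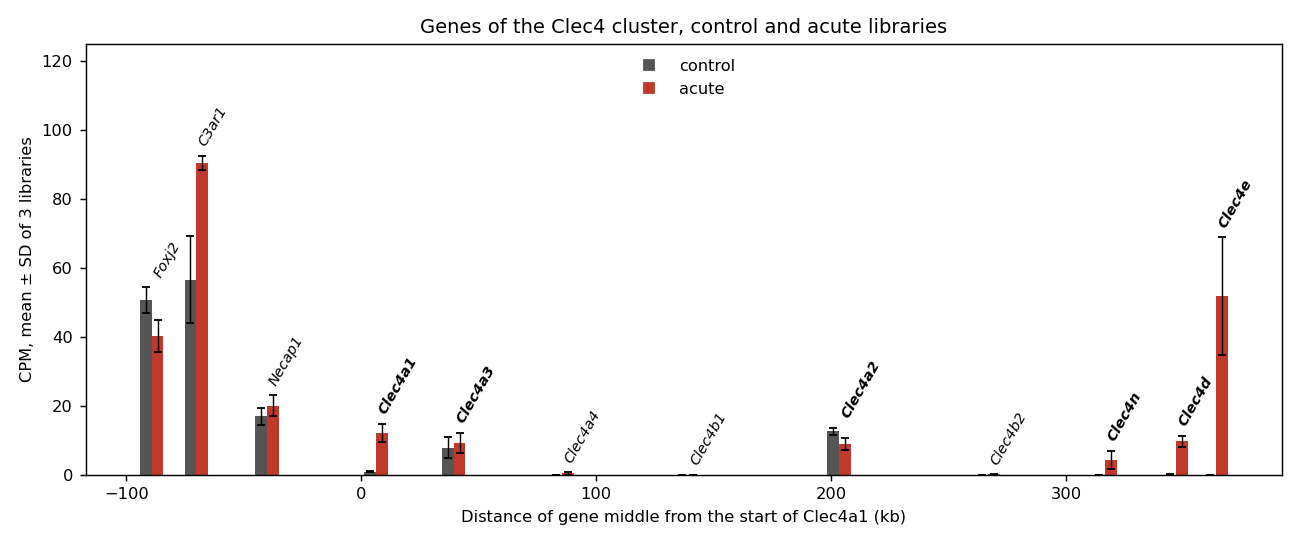
Mean CPM in control and acute libraries (vertical axis) of the genes of the Clec4 cluster and its neighbours, placed by distance in kilobases from the start of Clec4a1. Clec4e stands at 51.9 CPM in acute and 0 in control, while Clec4a3 stands at 9.22 and 7.91.

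The adaptors and kinases below the receptors were present in all groups and moved in both directions. Of 30 genes of receptor-proximal signalling, all tested, 12 were higher and 8 lower in the acute phase than in control, with a median log2 fold change of 0.1 (all genes tested, 0.01). The shares over all genes tested were 23.3% higher and 20.4% lower. Fcer1g, the adaptor of Clec4e, Clec4d and Clec4n, rose from 48.7 ± 3.49 to 86.2 ± 2.09 CPM (0.83 ± 0.12, adjusted p = 1.68e-05). In remission it was at 55 ± 4.16 CPM and in the chronic phase at 79.8 ± 8.05 CPM, the latter higher than control (adjusted p = 0.000339) and than remission (adjusted p = 0.0387). The 3 receptors that use it were at or under the floor in the chronic phase. Tyrobp, the adaptor of Clec5a, rose from 50.6 ± 2.05 CPM to 63.5 ± 10.9 in the acute phase (adjusted p = 0.0483) and 76.2 ± 4.34 in the chronic phase (adjusted p = 0.00302).

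Syk, the kinase shared by the activating receptors, rose from 117 ± 9.64 to 179 ± 34.5 CPM in the acute phase (0.62 ± 0.14, adjusted p = 0.00094) and was not called in remission or the chronic phase. Card9, the adaptor downstream of Syk, fell from 70.5 ± 5.86 to 50.3 ± 4.82 CPM (-0.48 ± 0.14, adjusted p = 0.00948), while its partner Malt1, a protease, rose from 31.2 ± 2.36 to 66.3 ± 11.8 CPM (adjusted p = 4.03e-06). Bcl10, the protein that joins them, named after its values were seen, was at 22 ± 2.46 and 18.9 ± 3.16 CPM and was not called, so genes of the same complex did not move together. Fgr, a Src-family kinase, rose from 8.29 ± 2.33 to 68.4 ± 9.56 CPM (3.07 ± 0.2, adjusted p = 1.61e-10) and was also higher than control in remission and the chronic phase, at 20.3 ± 2.64 and 18 ± 0.605 CPM. Pik3cg, a lipid kinase subunit, fell from 269 ± 11.4 to 139 ± 8.14 CPM (adjusted p = 5.32e-06). Among phosphatases of inhibitory receptors, named after their values were seen, Ptpn11 rose from 34.7 ± 3.02 to 75.6 ± 11 CPM (adjusted p = 8.43e-06), Inpp5d fell from 634 ± 33.4 to 368 ± 22.3 CPM (adjusted p = 4.49e-05) and Ptpn6 was at 120 ± 13.2 and 107 ± 15.1 CPM (adjusted p = 0.378).

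Of 20 genes described as targets of Syk and Card9 signalling, 12 were tested, and 6 were higher and 2 lower in the acute phase. Their median log2 fold change was 1.12. Over all genes tested, 23.3% were higher and 20.4% lower, with a median of 0.01. Il1b, the cytokine interleukin-1 beta, rose from 3.33 ± 0.891 to 73.4 ± 23.6 CPM (adjusted p = 2.07e-08) and Tnf from 3.9 ± 2.09 to 23.8 ± 7.16 CPM (adjusted p = 6.28e-06). Egr2, a transcription factor, rose from 0.635 ± 0.392 to 11 ± 1.19 CPM (adjusted p = 2.89e-05), and Tnfaip3, a brake on NF-kB, from 46.3 ± 1.76 to 145 ± 10.7 CPM (adjusted p = 4.42e-05). In remission and the chronic phase Il1b was at 2.99 ± 1.13 and 3.62 ± 2.09 CPM. Il6 and Nlrp3, the sensor of an inflammasome, fell in all 3 phases. Nlrp3 went from 88.7 ± 13.1 CPM in controls to 47.6 ± 6.52 CPM in the acute phase, 58.7 ± 3.37 CPM in remission and 51.4 ± 11.7 CPM in the chronic phase. Ccl3, a chemokine, was not called in the acute phase, at 1.96 ± 0.911 CPM in control and 2.91 ± 2.61, but rose in remission to 15.1 ± 5.28 CPM (adjusted p = 0.00146) and in the chronic phase to 9.33 ± 4.22 CPM (adjusted p = 0.00773).

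A list of 10 genes encodes described endogenous ligands of C-type lectin receptors or proteins linked to them. Of these genes, 6 were higher and none lower in the acute phase than in control, with a median log2 fold change of 3.92. Over all genes tested, 23.3% were higher and 20.4% lower, with a median of 0.01. In control 3 genes of the list, S100a8, S100a9 and Mpo, were at 0. With folds taken against the floor there, the median of the list was 3.64. Vim, the filament protein vimentin, rose from 4.01 ± 0.826 to 284 ± 61.5 CPM (6.16 ± 0.23, adjusted p = 3.52e-13). Anxa5, an annexin that binds phosphatidylserine, rose from 8.79 ± 2.47 to 27.8 ± 5.73 CPM (adjusted p = 3.22e-05) and stayed higher than control in remission and the chronic phase, at 19.9 ± 3.38 and 28.3 ± 9.6 CPM. Anxa1, another annexin, and S100a8, a calcium-binding protein of neutrophils, also rose. S100a8 was at 0 in control and at 35 ± 25.1 CPM in acute libraries, and it is also in the neutrophil list. Ctsl, a lysosomal protease, was not called in the acute phase and rose from 87.8 ± 13.3 CPM in control to 171 ± 12.9 CPM in remission and 182 ± 24.3 CPM in the chronic phase (adjusted p = 0.000426 and 0.00011).

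Of 45 other genes of the C-type lectin fold, 12 passed the filter and were tested. In the acute phase 10 of these 12 were higher than in control and 1 was lower. Over all genes tested, 23.3% were higher and 20.4% lower. Some of the 12 had no counts in control, and genes that did not pass the filter are not covered by this count. Cd93, a membrane receptor of myeloid and endothelial cells, had no counts in control and 33.5 ± 5.58 CPM in the acute libraries (adjusted p = 6.03e-09). Ly75, the endocytic receptor DEC-205, had none in control and 11.1 ± 3.62 CPM (adjusted p = 8.45e-07). Like most members, both were low in remission, at 0.397 ± 0.476 and 0.434 ± 0.593 CPM. Mrc2, an endocytic collagen receptor, fell from 120 ± 20.4 to 2.57 ± 0.705 CPM (-5.51 ± 0.46, adjusted p = 3.19e-06).

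Clec7a was also set beside 16 other genes of damage-associated microglia. In the acute phase 11 of the 16 were higher and 3 lower than in control, and in remission and in the chronic phase 15 were higher and none lower. Of all genes tested, 23.3% were higher and 20.4% lower than control in the acute phase. These shares were 6.14% and 3.16% in remission and 9.51% and 5.22% in the chronic phase. Relative to the acute phase, 11 of the 16 were higher and 1 lower in remission, and 12 were higher and 1 lower in the chronic phase, whereas Clec7a was lower in both. Over all genes tested, 18.3% were higher and 18.8% lower in remission, and 13.7% and 15.2% in the chronic phase. As a percentage of its highest group mean, Clec7a stood at 3% in control, 100% in the acute phase, 19.2% in remission and 34.1% in the chronic phase. Cd63, a lysosomal tetraspanin, stood at 11.1%, 50.5%, 86.6% and 100%, and Axl, a receptor tyrosine kinase, at 6.8%, 88.5%, 96.3% and 100%. Csf1, a growth factor of macrophages, stood at 11.1%, 42.8%, 100% and 95.7%, and Igf1, insulin-like growth factor 1, at 0.3%, 3.5%, 52.6% and 100%. Lgals3, which encodes galectin-3, was the exception, at 0.5%, 100%, 5.2% and 8.5%. Trem2, a lipid receptor that signals through Tyrobp, stood at 83%, 21.4%, 100% and 84.3%.

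**Figure D5:**
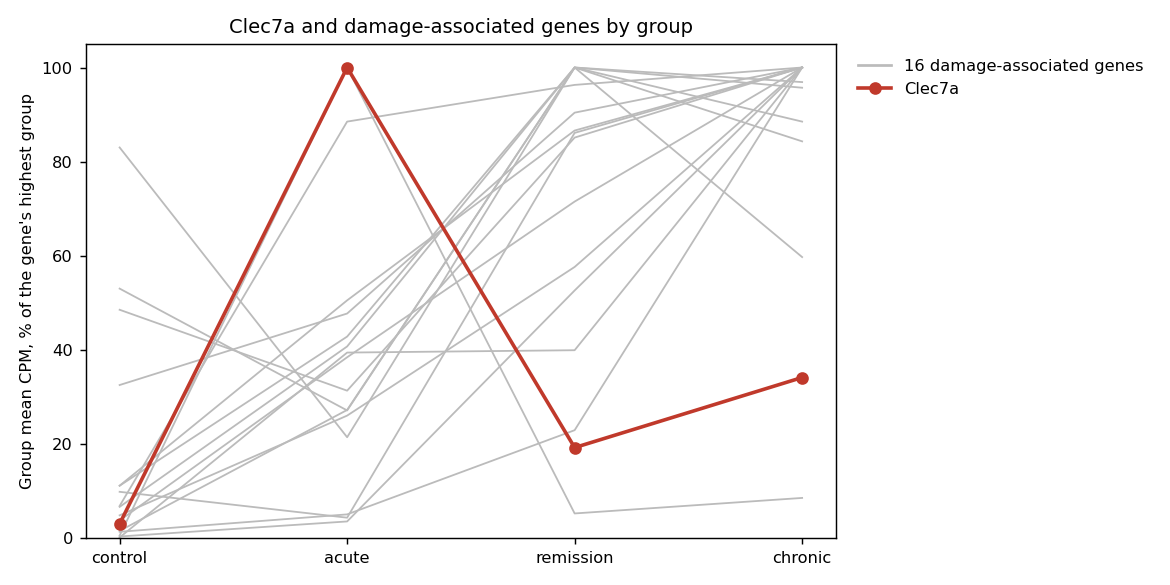
Group mean CPM as a percentage of the gene's highest group (vertical axis) in control, acute, remission and chronic libraries, for Clec7a and 16 genes of damage-associated microglia. Clec7a (100% in acute, 34.1% in chronic) and Lgals3 (100% and 8.5%) peak in the acute phase, while Cd63 and Axl are highest in the chronic phase.

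Likeness to the members was described by Pearson's r of log2 CPM over the 12 libraries, among protein-coding genes with at least 10 CPM in their highest group. These values describe points that share 4 groups and are given with no test. Clec7a was most like Aldoa (0.979), a glycolytic enzyme, Bhlhe40 (0.978), a transcription factor, and Rpl5 (0.977), a ribosomal protein. Clec12a was most like Ms4a8a (0.994), Grk6 (0.991) and F10 (0.988), the last a gene of the monocyte and macrophage list. Clec4e was most like Napsa (0.991), Klra2 (0.991) and Acpp (0.989), and Clec5a was most like Anxa6 (0.956), Pid1 (0.952) and 6430548M08Rik (0.951). Clec4a1 was most like Chil1 (0.974), Ass1 (0.974) and Tbk1 (0.973). Clec4a2 followed Lgals8 (0.916), Ankrd13c (0.909) and Map2k1 (0.853), and Clec4a3 followed Stk19 (0.917), Washc2 (0.835) and Hbp1 (0.76). Among the members themselves, r was 0.989 between Clec12a and Clec4d and 0.714 between Clec7a and Clec4e. Between Clec7a and Clec4a2 it was -0.534.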

How the data were processed

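Single-read libraries of 75 bases were made from sorted spinal cord microglia with random-hexamer reverse transcription and a transposase kit that does not mark strand, per the labels' protocols. Per the submitters' processing notes, the authors used HISAT2, SAMtools 1.3.1, Picard 2.6.4 and HTSeq 0.6.1 on GRCm38. The deposited values are raw read counts per gene, and the annotation release is not given in the sources used here. Of 48526 gene IDs, 48144 were found in GENCODE M21. No exon of a member overlaps an exon of another gene.

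In R 4.3.3 with edgeR 4.0.16, filterByExpr kept 12545 genes, and 1 robust quasi-likelihood model of 4 groups was fitted to the 12 libraries with TMM factors. The 6 comparisons between groups were adjusted by Benjamini-Hochberg over all genes tested. The members and gene lists were chosen with earlier results of these data known. Named genes are the members, for each list described genes among the 4 with the smallest p in acute against control and those called among the 4 with the smallest p in remission or chronic against control, the adaptors and kinases Fcer1g, Tyrobp, Syk and Card9, the genes most like a member, and checks of the sort. The fit was tested on simulated data. Alternatives were other scaling, filters and libraries left out, DESeq2 1.42.0, voom in limma 3.58.1, fits to 2 groups only and the number in the sample title as a covariate. Counting intervals are exact at 95% and cover counting error only, since reads carried no molecular identifiers.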

Additional observations from a re-analysis of the deposited data

How the results depend on the processing

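Of 42 member comparisons with a fold change, 25 were called, and 24 of these kept call and direction in all 21 alternatives in which they were tested. The other was Clec4a2 in chronic against acute, lost with library totals (-0.7, adjusted p = 0.0871), voom (-0.77, 0.0546), 2 groups only (-0.87, 0.0503) and without acute replicate 3 (-0.73, 0.0781). A further 6 comparisons, with no call, gained one in some alternative. Clec7a became the 1 member higher in chronic than remission by DESeq2 and with no filter (0.83 in each, adjusted p = 0.0489 and 0.000102). Members higher in remission than control numbered 1 to 2 as libraries were left out, members lower in chronic than control 1 to 2, and members higher in acute than control 7 to 8. With library totals, 1 member was lower in acute than control, 2 in chronic (main 1) and 2 in remission, and voom gave 1 in acute and 1 in remission, as did 2 groups only in remission. The cause of these changes was not tested. Clec4n passed the filter in some fits with fewer libraries.

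Reversed directions concerned differences without a call. With library totals, Clec4a2 in remission against acute was 0.09, and Clec4a3 was -0.28 in acute against control, 0.11 in chronic against acute and -0.17 in chronic against control. As libraries were left out, Clec4a3 ran from -0.31 (without acute replicate 3) to 0.14 (without acute replicate 2) in chronic against acute, and from -0.01 (without control replicate 2) to 0.49 (without control replicate 3) in chronic against control. Clec5a in chronic against remission was 0.05 with voom and 0.01 with the title number, and ran from -0.27 without chronic replicate 2 to 0.15 without chronic replicate 1.

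Library totals moved the median log2 fold change of all genes in acute against control from 0.01 to -0.53, and the higher share of calls from 53.3% to 22.8%. Calls over all genes moved by more than 1.5 times in some fits. Chronic against acute gave 3623, and 2412 with the title number. All chronic libraries carried the same title number, whereas the acute libraries did not. Chronic against control gave 1848, against 3223 with library totals and 1216 without control replicate 2. Remission against control gave 1166, against 767 and 757 without control replicates 1 and 2. Chronic against remission gave 149, against 385 by DESeq2, 53 by voom, 828 with no filter, 26 with 2 groups only and 17 to 283 as libraries were left out. No paired analysis was possible because the labels give no replicate number that pairs mice. Depth limits the members near 0, for which a few counts per group set the fold.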

Other observations

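Several genes of the C-type lectin fold outside the receptor group differed from control in remission or the chronic phase. Colec12, a scavenger receptor with a collagen-like stalk, was at 10.4 ± 3.97 CPM in controls and 38.8 ± 4.13 CPM in the acute phase, and at 74.9 ± 16.3 CPM in remission and 117 ± 38.6 CPM in the chronic phase (SD, n = 3). It rose in each phase against control by edgeR (adjusted p = 0.000363, 7.24e-05 and 7.91e-06) and was also higher in remission and the chronic phase than in the acute phase (adjusted p = 0.0166 and 0.000929). Cd72, a receptor best known from B cells, was at 4.53 ± 1.64 CPM in control and 4.65 ± 2.76 in acute libraries, and rose in the chronic phase to 24.7 ± 8.92 CPM (adjusted p = 0.000124). Klrb1b and Clec2i, a receptor and a relative of the ligands of that receptor family, rose in all 3 phases. Klrb1b went from 0.449 ± 0.389 CPM in control to 8.78 ± 0.877, 4.73 ± 3.02 and 8.72 ± 1.05 CPM in the acute, remission and chronic phases. In the same order Clec2i went from 2 ± 1.15 CPM to 6.9 ± 3.27, 9.91 ± 0.598 and 9.51 ± 2.17 CPM. Mrc2 was lower than control in all 3 phases and was at 22.1 ± 8.17 CPM in remission and 53.4 ± 23.5 CPM in chronic libraries, against 120 ± 20.4 in control.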
